A study of Mus musculus with 36 samples.

Results

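The insulin, PI3K-AKT, mTOR and FOXO pathway was described here through 33 of its genes, of 26400 gene rows counted. They were listed by symbol, from the receptors to the FOXO factors, by a rule that uses no measured value, although the list was drawn up with earlier results of these data known. Each of the 33 had a row, and each passed the filter on low counts in the fit of either fraction and of both together. RNA was measured in C1.1 cells and in C166 cells, a mouse endothelial line from the yolk sac. C1.1, which the study names after the removed hairpin, is 1 clone of C166 from which CRISPR editing removed 1 hairpin of the microRNA mmu-miR-466c in an intron of Sfmbt2. The study states that the cluster in this intron holds other miR-466c hairpins, and that removal of this copy strongly lowered miR-466c. Both lines were kept in normoxia or in hypoxia (1% oxygen) for 2h or 24h, and nuclear and cytoplasmic RNA were sequenced separately, which gave 12 groups of 3 libraries. Of these, 6 groups are of C1.1 and 6 of C166, each line with both fractions at all 3 conditions, and both lines were grown in the same medium with serum. The loss of the hairpin and the descent from a single cell cannot be told apart in the line comparisons. The labels do not say whether replicates came from separate cultures, so a p-value here reflects only how much the libraries of a group vary.

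Insulin and the insulin-like growth factors bind receptor tyrosine kinases, whose adaptors recruit PI3K, and the lipid it makes brings PDK1 and AKT to the membrane. AKT holds the FOXO transcription factors out of the nucleus, holds GSK3 in check, and relieves the TSC brake on Rheb, the switch of the growth kinase complex mTORC1. In low oxygen mTORC1 is known to be restrained through Ddit4 (REDD1) and AMPK, and in endothelium the pathway is known for its part in growth, metabolism and vessel quiescence.

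Total counts ran from 15314724 to 24940907 in the nuclear libraries and from 20745543 to 28667821 in the cytoplasmic ones. Levels are given as CPM, the count scaled to the library total after TMM normalisation, which adjusts the totals by the bulk of genes. C166 cytoplasm normoxia replicate 1 stood apart, with counts in 11903 genes against 14879 to 18768 in the other cytoplasmic libraries. Of 15 endothelial markers 10 had a row, and their summed level was 22.6 to 167 CPM over all libraries, with the defining markers Cdh5, Kdr and Tie1 at or near 0. The 13 markers of smooth muscle and mesenchyme summed to 2027 to 2285 CPM in normoxic cytoplasm of C1.1 and to 5946 to 7596 CPM in that of C166. Blood markers reached at most 4.72 CPM and epithelial markers at most 1.31 CPM. Nuclear-retained RNAs summed to 15668 to 27830 CPM in the nuclear libraries and to 2846 to 9574 CPM in the cytoplasmic ones.

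Levels were first compared between the genes per kb of exon. Akt1, the general AKT isoform, was the highest of the 33 in normoxic cytoplasm, at 109 ± 12.9 CPM per kb in C1.1 and 129 ± 15.1 in C166 (SD, n = 3 each). Sgk1, a kinase of the AKT family that PDK1 also activates, followed with 71.9 ± 3.70 CPM per kb in C1.1 and 75.9 ± 8.95 in C166. In the nucleus the order of these genes was turned, with Sgk1 at 61.3 ± 1.89 and Akt1 at 40.1 ± 3.66 CPM per kb in C1.1. At the low end were Foxo1, with 0.819 ± 0.0776 CPM per kb in C1.1 and 0.728 ± 0.0309 in C166 cytoplasm, and Prkaa2, an AMPK catalytic subunit, with 0.258 ± 0.0749 and 0.163 ± 0.0982. Akt1 and Foxo1 were both measured in every library.

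After 24h of hypoxia 17 to 19 of the 33 genes were called changed in each line and fraction (edgeR quasi-likelihood test, Benjamini-Hochberg adjusted p under 0.05 over all genes tested). In C1.1 nucleus 10 of 33 were higher and 8 lower, where 22.3% of all genes were called higher and 20.5% lower. In C166 nucleus 8 were higher and 9 lower, against a background of 19.2% and 18.4%. In C1.1 cytoplasm 16 were higher and 3 lower, where the background was 18% higher and 18.1% lower. In C166 cytoplasm 13 were higher and 4 lower, beside 18.2% and 17.5% of all genes. The median log2 difference of the 33 genes was -0.14 and 0.04 in the nucleus of C1.1 and C166, and 0.30 and 0.19 in their cytoplasm. Over all genes the medians were 0.00 and 0.00 in these nuclei, and 0.03 and 0.08 in these cytoplasms. Of the 33 genes, 8 were higher in all 4 comparisons (Insr, Pik3r1, Pik3r2, Ddit4, Eif4ebp1, Foxo1, Foxo3 and Foxo4), Sgk1 was lower in all 4, and 7 were called in none. Of all genes tested in both fractions 7.45% were higher in all 4, 6.94% lower in all 4 and 30.1% called in none. These are bulk RNA samples, so fewer cells of a kind and less RNA per cell cannot be told apart. Endothelial markers moved with 24h of hypoxia, and summed to 94.5 to 115 CPM at 24h, against 36.1 to 39.7 CPM in normoxia, in C1.1 cytoplasm, and to 108 to 132 against 54.03 to 58.1 CPM in C166 cytoplasm. In the nucleus they summed to 149 to 154 against 22.6 to 31.2 CPM in C1.1, and to 96.6 to 167 against 40.7 to 43.6 CPM in C166. Cdh5, Kdr and Tie1 had no counts at 24h in either line or fraction, so the higher sums come from the other endothelial markers. In cytoplasm the mesenchyme markers moved the other way, to 1240.5 to 1419.6 CPM in C1.1 cytoplasm and 1877 to 2196 CPM in C166 cytoplasm at 24h, below the normoxic sums given above. In the nucleus their sum was higher at 24h in C1.1, at 4209.7 to 5062 against 3811 to 3955 CPM, and lower in C166, at 6081 to 8326 against 8741 to 9807 CPM. The part of both marker groups in the changes below was not tested.

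**Figure D1:**
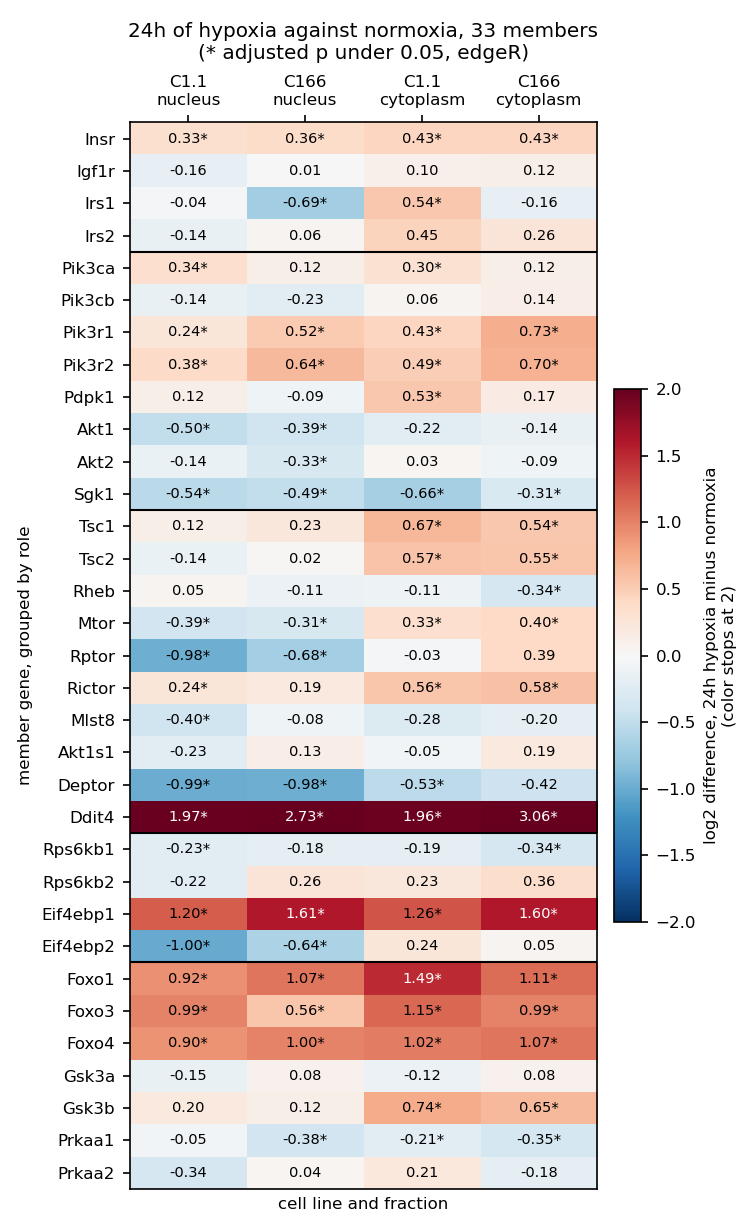
Heat map of the log2 difference of 24h hypoxia minus normoxia for the 33 genes (rows, by role) in C1.1 nucleus, C166 nucleus, C1.1 cytoplasm and C166 cytoplasm (columns); the colour scale stops at 2 and a star marks an adjusted p under 0.05. Ddit4, Eif4ebp1 and the 3 FOXO genes carry stars in all 4 columns on the higher side, and Sgk1 on the lower side.

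Promoter sequence is shown for 4 genes whose RNA the results turn on. Ddit4, Foxo1 and Foxo3 rose at 24h in both lines, and Irs1 was the gene whose 24h change differed between the lines in both fractions. RefSeq gave 39 windows of 250 bases before a start site for 28 of the 33 genes, and Insr, Deptor, Rps6kb2, Eif4ebp1 and Foxo4 were not matched. The windows were searched on both strands for ACGTG and GCGTG, the cores that hypoxia inducible factors bind, and capitals mark the matches, read on either strand. All 4 are written 5′ to 3′ on the strand of the gene, on build GRCm38.p6: Ddit4 at chr10:59951771-59952020 (minus), Foxo1 at chr3:52268087-52268336 (plus), Foxo3 at chr10:42276696-42276945 (minus) and Irs1 at chr1:82291440-82291689 (minus).
Ddit4: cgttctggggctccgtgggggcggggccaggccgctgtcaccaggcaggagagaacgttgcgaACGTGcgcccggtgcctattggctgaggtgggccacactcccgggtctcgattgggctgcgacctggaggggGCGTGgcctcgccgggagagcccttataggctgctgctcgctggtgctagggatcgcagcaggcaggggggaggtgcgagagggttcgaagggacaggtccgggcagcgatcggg
Foxo1: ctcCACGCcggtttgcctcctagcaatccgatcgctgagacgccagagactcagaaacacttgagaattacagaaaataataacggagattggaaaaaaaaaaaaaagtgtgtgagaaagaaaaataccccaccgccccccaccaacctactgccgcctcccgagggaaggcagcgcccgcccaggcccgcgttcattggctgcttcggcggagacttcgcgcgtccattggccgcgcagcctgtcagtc
Foxo3: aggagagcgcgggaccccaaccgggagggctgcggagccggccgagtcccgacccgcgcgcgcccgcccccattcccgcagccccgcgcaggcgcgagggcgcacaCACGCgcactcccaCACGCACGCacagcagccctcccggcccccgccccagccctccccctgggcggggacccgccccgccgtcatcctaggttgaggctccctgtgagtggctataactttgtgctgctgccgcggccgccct
Irs1: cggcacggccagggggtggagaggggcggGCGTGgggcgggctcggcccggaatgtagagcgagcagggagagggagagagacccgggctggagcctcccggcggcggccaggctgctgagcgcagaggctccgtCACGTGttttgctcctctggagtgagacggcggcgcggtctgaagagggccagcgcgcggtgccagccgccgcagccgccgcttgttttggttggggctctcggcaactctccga
Ddit4 held 1 ACGTG and 1 GCGTG, Foxo1 1 GCGTG, Foxo3 3 GCGTG, and Irs1 1 GCGTG and a CACGTG, which reads as ACGTG on either strand. Of the 39 windows 9 held ACGTG (23.1%, against 16.6% of all 32851 windows) and 21 held GCGTG (53.8%, against 28.2%). The FOXO motif GTAAACA was in 1 of the 39 windows, that of Akt1 (2.56%, against 3.17% of all windows). A match describes these letters only, and genes lower at 24h, such as Sgk1 and Rptor, held matches too.

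Among the receptors and adaptors, Insr rose and Igf1r was not called. Insr (chr8:3122061-3279617 in GENCODE M21), the insulin receptor, had 95.3, 98.7 and 95.2 CPM at 24h, against 77.6, 77.4 and 75.7 CPM in normoxia, in C1.1 nucleus, a log2 difference of 0.33 ± 0.08 (SE; adjusted p = 0.00235). In C166 nucleus it had 87.9, 87.8 and 82.1 CPM at 24h, against 63.3, 66.5 and 70.7 CPM in normoxia, a difference of 0.36 ± 0.08 (adjusted p = 0.00116). The 24h libraries lay above all normoxic ones in both lines. In the cytoplasm the log2 difference was 0.43 ± 0.14 in C1.1 and 0.43 ± 0.14 in C166 (adjusted p = 0.0219 and 0.0216), also without overlap of the libraries. The call in C1.1 cytoplasm was lost without 24h replicate 1 or 3 or normoxia replicate 2 or 3 (adjusted p 0.0526 to 0.145), and that in C166 cytoplasm without 24h replicate 1 or normoxia replicate 1 or 3 (adjusted p 0.0538 to 0.149), each left out alone. With other scalings and fits included, the C166 call was lost in 4 of the 12 settings tried. Igf1r, the receptor of the insulin-like growth factors, was not called at 24h in either line or fraction, with log2 differences between -0.16 (C1.1 nucleus) and 0.12 (C166 cytoplasm).

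Irs1 (chr1:82233101-82291416), the adaptor that carries the signal of both receptors to PI3K, was called lower in C166 nucleus and higher in C1.1 cytoplasm. In C166 nucleus it fell to 147, 153 and 168 CPM at 24h, against 259, 260.2 and 238 CPM in normoxia, a log2 difference of -0.69 ± 0.09 (adjusted p = 1.72e-06). In C1.1 nucleus it had 77.2, 64.9 and 64.8 CPM at 24h, against 73.6, 70.8 and 68.4 CPM in normoxia, and was not called (-0.04 ± 0.10). In C166 nucleus all 24h libraries were below all normoxic ones, while those of C1.1 nucleus overlapped. In C1.1 cytoplasm Irs1 rose to 69.4, 60.2 and 64.2 CPM at 24h, against 46.9, 40.04 and 46.5 CPM in normoxia (0.54 ± 0.12, adjusted p = 0.000848). In C166 cytoplasm it had 128, 127 and 133 CPM at 24h, against 156, 127 and 151 CPM in normoxia, which overlapped (-0.16 ± 0.11). Irs2, the related adaptor, was not called at 24h in either line or fraction. Its highest difference was 0.45 ± 0.18, in C1.1 cytoplasm (adjusted p = 0.0541).

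Of the PI3K subunits both regulatory ones rose. Pik3r1 (chr13:101680563-101768217), which encodes p85 alpha, had 115, 133 and 140.3 CPM at 24h, against 112, 111 and 105 CPM in normoxia, in C1.1 nucleus, and 118, 85.4 and 98.7 against 72.2, 70.8 and 67.5 CPM in C166 nucleus. In cytoplasm it had 182, 196 and 205 CPM at 24h, against 140.2, 132 and 162 CPM in normoxia, in C1.1, and 133, 123 and 124 against 75.6, 72.5 and 81.1 CPM in C166. The 24h libraries lay above the normoxic ones in each case. The log2 differences were 0.24 ± 0.10 and 0.52 ± 0.10 in the nucleus of C1.1 and C166, and 0.43 ± 0.09 and 0.73 ± 0.09 in their cytoplasm, and the lines' 24h changes were not called different from each other. Pik3r2, which encodes p85 beta, rose by 0.38 ± 0.12 and 0.64 ± 0.12 in the nucleus of C1.1 and C166, and by 0.49 ± 0.12 and 0.70 ± 0.12 in their cytoplasm. Of the catalytic subunits, Pik3ca (p110 alpha) rose in C1.1, by 0.34 ± 0.09 in nucleus and 0.30 ± 0.08 in cytoplasm. In C166 the Pik3ca difference was 0.12 ± 0.09 and 0.12 ± 0.08, and the change was not called different between the lines. Pik3cb (p110 beta) was not called at 24h. In C1.1 nucleus the call of Pik3r1 was lost without 24h replicate 2 or 3 or normoxia replicate 1, 2 or 3 (adjusted p 0.0770 to 0.217), and that of Pik3r2 without 24h replicate 1 or 2 or normoxia replicate 1 or 2 (adjusted p 0.0524 to 0.0799). Other scalings and fits included, this Pik3r1 call was lost in 7 of the 12 settings tried.

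The kinases below PI3K moved apart. Sgk1 (chr10:21882184-21999903) was lower at 24h in all 4 comparisons, with 211, 208 and 225 CPM at 24h, against 319, 315 and 301 CPM in normoxia, in C1.1 nucleus. In C166 nucleus it had 265, 273 and 271 CPM at 24h, against 368, 377 and 390.1 CPM in normoxia. In C1.1 cytoplasm it had 212, 210.5 and 215 CPM at 24h, against 337, 351 and 317 CPM in normoxia, and in C166 cytoplasm 279, 298 and 287 against 337, 402 and 333 CPM. None of these groups overlapped, and Sgk1 fell in each. The log2 differences were -0.54 ± 0.08, -0.49 ± 0.08, -0.66 ± 0.09 and -0.31 ± 0.09 in C1.1 nucleus, C166 nucleus, C1.1 cytoplasm and C166 cytoplasm. The call in C166 cytoplasm was lost without normoxia replicate 2 (adjusted p = 0.0751), and in 2 of the 12 settings tried when other scalings and fits are included. Akt1 fell in the nuclei, to 131, 117 and 114 CPM at 24h, against 154, 184 and 173 CPM in normoxia, in C1.1 (-0.50 ± 0.10, adjusted p = 0.000165), and to 183, 173 and 192 against 249.8, 262 and 207 CPM in C166 (-0.39 ± 0.10, adjusted p = 0.00203). Within each line every 24h nucleus was below every normoxic one, while the cytoplasmic differences of -0.22 ± 0.10 in C1.1 and -0.14 ± 0.10 in C166 were not called. Akt2, the isoform best known for glucose uptake, was lower in C166 nucleus (-0.33 ± 0.12, adjusted p = 0.0368), where the libraries overlapped and the call was lost without 24h replicate 1 or normoxia replicate 1 or 2 (adjusted p 0.107 to 0.234). Pdpk1, which encodes PDK1, the kinase that activates AKT, rose in C1.1 cytoplasm to 199.8, 202 and 212 CPM at 24h, against 126, 144 and 155 CPM in normoxia (0.53 ± 0.09, adjusted p = 0.000126).

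The largest 24h change of the 33 genes in each line and fraction was that of Ddit4 (chr10:59949669-59951834), a hypoxia-induced activator of the TSC brake. In C1.1 nucleus Ddit4 had 50.8, 43.95 and 30.3 CPM at 24h, against 12.05, 8.84 and 10.8 CPM in normoxia, a 3.93-fold rise (1.97 ± 0.25, adjusted p = 4.54e-07). In C166 nucleus it had 30.03, 68.02 and 76.2 CPM at 24h, against 9.53, 7.21 and 9.58 CPM in normoxia, a 6.62-fold rise (2.73 ± 0.26, adjusted p = 3.95e-09). All 24h nuclei were above all normoxic ones, with C166 replicate 1 the lowest of its 24h group. In C1.1 cytoplasm Ddit4 had 75.8, 51.2 and 55.8 CPM at 24h, against 16.5, 15.2 and 15.2 CPM in normoxia (3.90-fold, adjusted p = 7.33e-08). In C166 cytoplasm it had 66.1, 81.96 and 80.97 CPM at 24h, against 6.02, 10.9 and 10.5 CPM in normoxia (8.33-fold, adjusted p = 3.54e-10). No alternative setting took away a 24h call of Ddit4.

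The subunits of the TSC brake rose in the cytoplasm. Tsc1 had 88.05, 99.8 and 102 CPM at 24h, against 55.6, 62.3 and 64.6 CPM in normoxia, in C1.1 cytoplasm, and 92.5, 78.7 and 82.9 against 56.4, 59.7 and 59.1 CPM in C166 cytoplasm. Tsc2, the subunit that switches Rheb off, had 86.7, 87.3 and 98.4 CPM at 24h, against 54.9, 60.4 and 68.3 CPM in normoxia, in C1.1 cytoplasm, and 85.7, 57.6 and 70.8 against 50.2, 48.2 and 48.05 CPM in C166 cytoplasm. For both genes the 24h and normoxic libraries did not overlap. The Tsc1 difference was 0.67 ± 0.10 in C1.1 and 0.54 ± 0.10 in C166 (adjusted p = 1.90e-05 and 0.000253), and that of Tsc2 was 0.57 ± 0.13 and 0.55 ± 0.13 (adjusted p = 0.00123 and 0.00203). In the nucleus neither gene was called, with Tsc1 at 0.12 ± 0.10 and 0.23 ± 0.10 and Tsc2 at -0.14 ± 0.12 and 0.02 ± 0.12 in C1.1 and C166. Tsc2 shares exon sequence on the other strand with Pkd1, and reads of such pairs may not be told apart, since the use of strand in counting is not stated. Rheb, the activator of mTORC1, was lower in C166 cytoplasm (-0.34 ± 0.10, adjusted p = 0.00813), a call that was lost without 24h replicate 1 (adjusted p = 0.0514). Other scalings and fits included, it was lost in 2 of the 12 settings tried (adjusted p up to 0.0679).

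Among the mTOR complex genes the kinase and its mTORC1 partner were lower in the nucleus. Rptor (chr11:119602905-119899576), the scaffold that defines mTORC1, fell to 62.5, 57.96 and 61.6 CPM at 24h, against 119.6, 118 and 120.3 CPM in normoxia, in C1.1 nucleus (-0.98 ± 0.09, adjusted p = 1.86e-09). In C166 nucleus it fell to 75.2, 64.2 and 62.4 CPM at 24h, against 112, 109 and 101 CPM in normoxia (-0.68 ± 0.09, adjusted p = 9.26e-07). Every 24h nucleus had less Rptor RNA than every normoxic one, while in cytoplasm Rptor was not called (-0.03 ± 0.15 in C1.1 and 0.39 ± 0.15 in C166). Mtor, the kinase itself, had 79.7, 69.3 and 67.9 CPM at 24h, against 90.8, 96.8 and 96.7 CPM in normoxia, in C1.1 nucleus, and 72.1, 73.1 and 75.2 against 91.8, 96.7 and 85.5 CPM in C166 nucleus. In cytoplasm Mtor had 83.6, 83.2 and 91.7 CPM at 24h, against 64.8, 67.6 and 72.9 CPM in normoxia, in C1.1, and 61.4, 61.8 and 68.5 against 40.6, 48.8 and 55.8 CPM in C166. Mtor was thus lower in the nucleus (-0.39 ± 0.09 and -0.31 ± 0.09) and higher in the cytoplasm (0.33 ± 0.11 and 0.40 ± 0.11) of C1.1 and C166, without overlap in any of the 4 comparisons. The cytoplasmic call was lost in C1.1 without 24h replicate 3 or normoxia replicate 1 or 2 (adjusted p 0.0672 to 0.0976). In C166 cytoplasm it was lost in 1 of the 12 settings tried (adjusted p = 0.0737). Without the library that stood apart the C166 difference was 0.29 (adjusted p = 0.0415).

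Rictor, the scaffold of mTORC2, was higher in the cytoplasm, by 0.56 ± 0.11 in C1.1 and 0.58 ± 0.11 in C166 (adjusted p = 0.000394 and 0.000320). In C1.1 nucleus Rictor was higher by 0.24 ± 0.09, a call lost without 24h replicate 2 or 3 or normoxia replicate 1 or 2 (adjusted p 0.0583 to 0.169). Deptor, an inhibitory partner of both complexes, fell in the nuclei, to 37.4, 44.00 and 42.1 CPM at 24h, against 80.1, 91.7 and 73.5 CPM in normoxia, in C1.1, and to 20.7, 16.96 and 16.6 against 37.00, 36.1 and 33.8 CPM in C166. Within each line all 24h nuclei were below all normoxic ones, with log2 differences of -0.99 ± 0.11 and -0.98 ± 0.11. In cytoplasm the Deptor difference was -0.53 ± 0.17 in C1.1, where the call was lost without 24h replicate 2 or normoxia replicate 3 (adjusted p 0.0517 to 0.0899), and -0.42 ± 0.17 in C166 (not called). Mlst8, a subunit of both complexes, was lower in C1.1 nucleus (-0.40 ± 0.11, adjusted p = 0.00356), and Akt1s1 (PRAS40), a brake of mTORC1, was not called at 24h.

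Of the mTORC1 substrates, Eif4ebp1 (chr8:27260329-27276674), a repressor of cap-dependent translation, rose in each line and fraction. It had 62.1, 75.7 and 74.3 CPM at 24h, against 30.7, 32.4 and 29.04 CPM in normoxia, in C1.1 nucleus, and 115, 96.1 and 111 against 33.7, 36.7 and 35.5 CPM in C166 nucleus. In cytoplasm it had 134, 183 and 175 CPM at 24h, against 59.6, 73.2 and 71.9 CPM in normoxia, in C1.1, and 213, 218 and 232 against 61.00, 81.7 and 75.2 CPM in C166. The lowest 24h library was above the highest normoxic one each time. The rise was 2.30-fold and 3.04-fold in the nucleus of C1.1 and C166, and 2.40-fold and 3.04-fold in their cytoplasm (adjusted p at most 9.95e-08). Its relative Eif4ebp2 went the other way in the nucleus, with 7.44, 6.98 and 4.69 CPM at 24h, against 10.8, 14.5 and 13.00 CPM in normoxia, in C1.1 (-1.001 ± 0.22), and 6.93, 8.15 and 9.72 against 16.3, 10.99 and 11.4 CPM in C166 (-0.64 ± 0.22). Both nuclear groups were apart from their controls, though in C166 the call was lost without 24h replicate 1 or 2 or normoxia replicate 1 (adjusted p 0.0529 to 0.153). In cytoplasm Eif4ebp2 was not called. Rps6kb1, the S6 kinase, was lower in C166 cytoplasm (-0.34 ± 0.08) and C1.1 nucleus (-0.23 ± 0.09), the second of these lost without 24h replicate 1 or 2 or normoxia replicate 1, 2 or 3 (adjusted p 0.0660 to 0.148), and Rps6kb2, the other S6 kinase, was not called.

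The FOXO factors rose together. Foxo1 (chr3:52268336-52353221), the main FOXO factor of insulin signalling, had 8.77, 11.9 and 11.04 CPM at 24h, against 5.60, 6.11 and 5.07 CPM in normoxia, in C1.1 nucleus, and 12.2, 8.27 and 8.21 against 5.62, 4.24 and 3.79 CPM in C166 nucleus. In cytoplasm Foxo1 had 19.2, 18.8 and 18.8 CPM at 24h, against 6.73, 6.10 and 7.39 CPM in normoxia, in C1.1 (2.81-fold), and 16.4, 9.67 and 13.2 against 6.23, 5.74 and 6.21 CPM in C166 (2.16-fold). The groups were apart in all 4 comparisons, and the 24h cytoplasm of C1.1 stood highest. Foxo3 (chr10:42181841-42276755), the most abundant of the 3 per kb of exon in normoxic cytoplasm, had 138, 127 and 123 CPM at 24h, against 66.6, 69.1 and 60.3 CPM in normoxia, in C1.1 nucleus (0.99 ± 0.09), and 143, 139 and 131 against 93.6, 101 and 85.7 CPM in C166 nucleus (0.56 ± 0.09). In C1.1 cytoplasm it had 169, 163 and 164 CPM at 24h, against 67.7, 73.8 and 81.3 CPM in normoxia (1.15 ± 0.10), and in C166 cytoplasm 166.3, 164 and 165 against 70.5, 85.8 and 93.7 CPM (0.99 ± 0.10). The 24h cytoplasms of both lines lay close together. Foxo4 rose by 0.90 ± 0.18 and 0.999 ± 0.19 in the nucleus of C1.1 and C166, and by 1.02 ± 0.16 and 1.07 ± 0.16 in their cytoplasm. None of these 12 FOXO calls was lost in any setting tried.

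**Figure D2:**
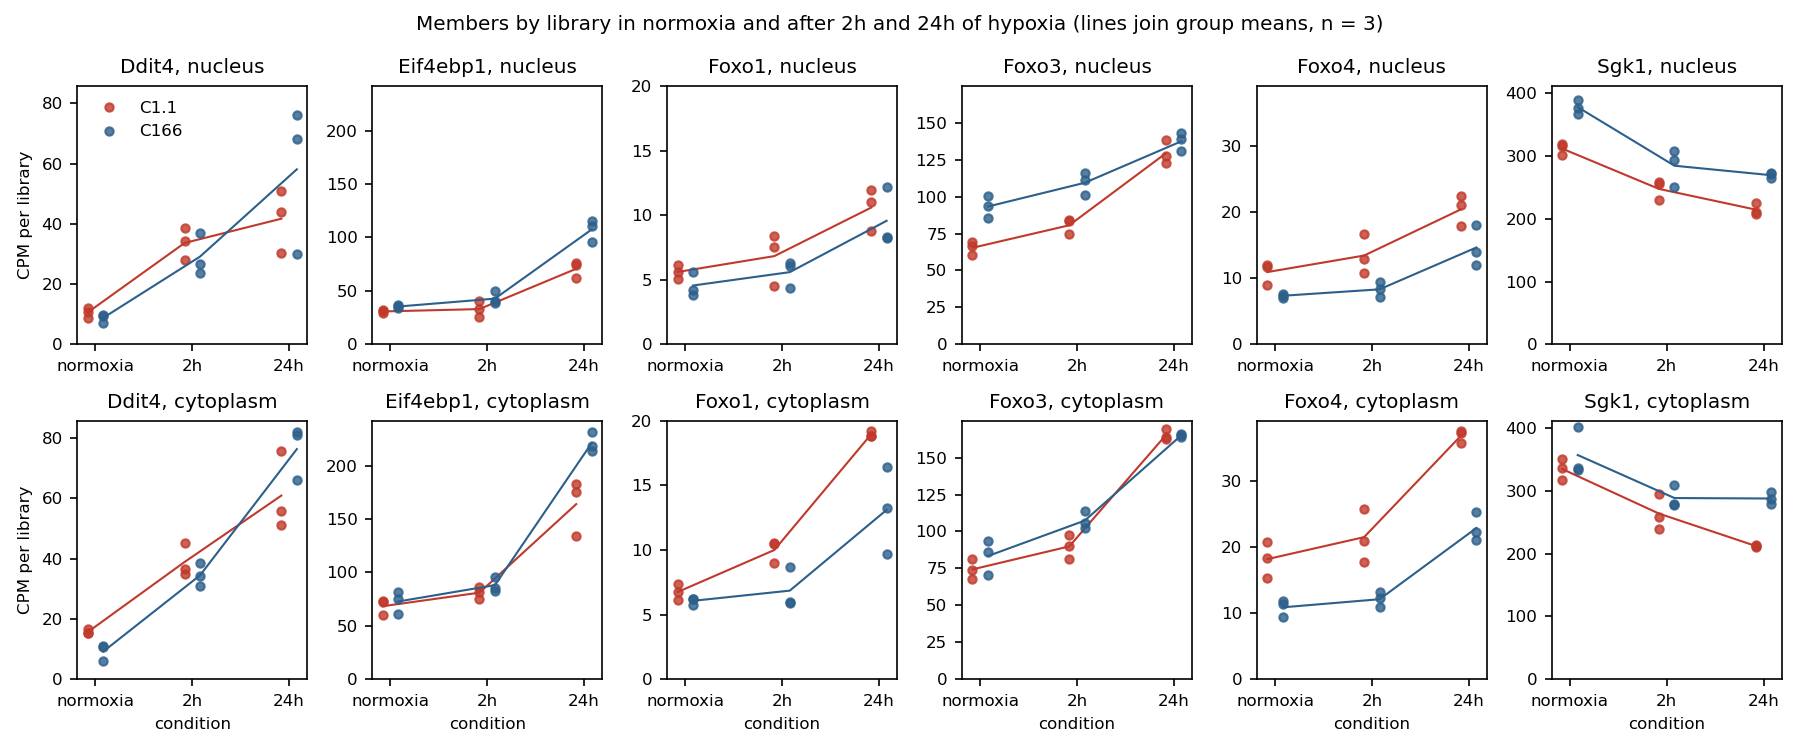
CPM of Ddit4, Eif4ebp1, Foxo1, Foxo3, Foxo4 and Sgk1 in each library (points) in normoxia, 2h and 24h of hypoxia, with lines through the means of 3; nucleus in the upper row, cytoplasm in the lower row. In C166 cytoplasm Ddit4 lies between 66.1 and 82.0 CPM at 24h, above every 2h and normoxic library, while in each line and fraction the FOXO genes stand highest at 24h and Sgk1 at 24h lies below normoxia.

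Gsk3b, a kinase that AKT inhibits, rose in the cytoplasm, to 248, 219.7 and 293 CPM at 24h, against 148, 133 and 173 CPM in normoxia, in C1.1 (0.74 ± 0.12, adjusted p = 5.97e-05), and to 245, 178 and 227 against 127, 143 and 143 CPM in C166 (0.65 ± 0.12, adjusted p = 0.000292). The 24h cytoplasms were above the normoxic ones without overlap, and in the nucleus Gsk3b was not called (0.20 ± 0.11 and 0.12 ± 0.11). Gsk3a, its close relative, was not called at 24h. Prkaa1, the main AMPK catalytic subunit here, was lower in C166 nucleus (-0.38 ± 0.09), C1.1 cytoplasm (-0.21 ± 0.08) and C166 cytoplasm (-0.35 ± 0.08). The call in C1.1 cytoplasm was lost without 24h replicate 2 or 3 or normoxia replicate 1, 2 or 3 (adjusted p 0.0501 to 0.136). With other scalings and fits included, it was lost in 8 of the 12 settings tried (adjusted p up to 0.141). Prkaa2 was not called.

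After 2h of hypoxia few of the genes were called. In C1.1 nucleus 1 of 33 was higher and 1 lower, against 2.08% and 1.21% of all genes, and in C166 nucleus 1 was higher and 1 lower, against 1.37% and 0.928%. In C1.1 cytoplasm 4 were higher and 1 lower, against 1.09% and 0.86% of all genes, and in C166 cytoplasm 2 were higher and 0 lower, against 0.913% and 0.427%. Ddit4 was called higher in each. Ddit4 had 34.4, 38.7 and 27.8 CPM at 2h in C1.1 nucleus and 26.7, 36.8 and 23.8 CPM in C166 nucleus. In cytoplasm it had 45.2, 36.5 and 34.9 CPM at 2h in C1.1 and 34.1, 38.4 and 30.9 CPM in C166. The log2 difference from normoxia was 1.67 ± 0.25 and 1.73 ± 0.26 in the nuclei and 1.32 ± 0.18 and 1.91 ± 0.19 in the cytoplasms of C1.1 and C166. Sgk1 was already lower at 2h in C1.1 nucleus (-0.33 ± 0.08), C166 nucleus (-0.41 ± 0.08) and C1.1 cytoplasm (-0.34 ± 0.09). Pik3r1 was higher in the cytoplasm of C1.1 (0.50 ± 0.09) and C166 (0.37 ± 0.09), as were Tsc1 (0.45 ± 0.10) and Gsk3b (0.49 ± 0.12) in C1.1 cytoplasm. The 2h calls of Ddit4, and that of Pik3r1 in C1.1 cytoplasm, held without any single library. Pik3r1 in C166 cytoplasm was lost without 2h replicate 1, 2 or 3 or normoxia replicate 1 or 2 (adjusted p 0.0576 to 0.154). In C1.1 cytoplasm Sgk1 was lost without 2h replicate 1 or 2 or normoxia replicate 1, 2 or 3 (adjusted p 0.0594 to 0.338), Tsc1 without 2h replicate 1 or 2 or normoxia replicate 1 or 2 (adjusted p 0.0845 to 0.166), and Gsk3b without 2h replicate 1, 2 or 3 or normoxia replicate 1 or 2 (adjusted p 0.0806 to 0.239). In the nucleus Sgk1 was lost in C1.1 without 2h replicate 2 or normoxia replicate 1 or 2 (adjusted p 0.0788 to 0.123) and in C166 without 2h replicate 1 (adjusted p = 0.0544). Other scalings and fits included, the 2h calls of Pik3r1 in C166 cytoplasm and Sgk1 in C1.1 cytoplasm were each lost in 6 of 12 settings.

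The lines were then compared in normoxia. In the nucleus 6 of 33 genes were higher and 8 lower in C1.1 than in C166, where 18.8% of all genes were called higher and 21.2% lower. In the cytoplasm 6 were higher and 5 lower, against 18.2% and 17.3%. In the main fits the share of the 33 genes called was thus near that of all genes in both fractions. With only the libraries compared 21 were called in the nucleus and 8 in the cytoplasm. The share of all genes was not computed for that setting. The median log2 difference of the 33 was -0.01 in the nucleus and 0.04 in the cytoplasm, beside 0.02 and 0.06 over all genes. Pik3r1, Deptor and Foxo4 were higher and Irs1, Pik3ca, Pik3cb, Rheb and Prkaa1 lower in both fractions. The mesenchyme markers also differed between the lines, with sums of 3811 to 3955 CPM in C1.1 and 8741 to 9807 CPM in C166 nucleus, and their part in these differences was not tested.

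Irs1 was the gene most lowered in C1.1. In the nucleus it had 73.6, 70.8 and 68.4 CPM in C1.1 and 259, 260.2 and 238 CPM in C166, which is 3.56-fold lower in C1.1 (-1.83 ± 0.10, adjusted p = 6.26e-14). In the cytoplasm it had 46.9, 40.04 and 46.5 CPM in C1.1 and 156, 127 and 151 CPM in C166, 3.25-fold lower in C1.1 (-1.70 ± 0.12, adjusted p = 7.92e-10). The lines' libraries lay far apart in both fractions. Deptor was raised in both fractions, with 80.1, 91.7 and 73.5 CPM in C1.1 and 37.00, 36.1 and 33.8 CPM in C166 nucleus, and 181, 171 and 185 CPM in C1.1 and 78.9, 58.1 and 63.4 CPM in C166 cytoplasm. The log2 differences of Deptor were 1.198 ± 0.11 and 1.42 ± 0.17, with no overlap of libraries. Pik3r1 was higher in C1.1 by 0.64 ± 0.10 in the nucleus and 0.92 ± 0.09 in the cytoplasm, while the catalytic subunits were lower, with log2 differences of -0.76 ± 0.12 and -0.40 ± 0.14 for Pik3cb and -0.32 ± 0.09 and -0.25 ± 0.08 for Pik3ca. The cytoplasmic call of Pik3ca was lost without C1.1 normoxia replicate 1 or 2 or C166 normoxia replicate 1 or 2 (adjusted p 0.0703 to 0.114), and that of Pik3cb without C1.1 normoxia replicate 2 or C166 normoxia replicate 1 or 3 (adjusted p 0.0812 to 0.160). Other scalings and fits included, these calls were lost in 6 and 4 of the 12 settings tried.

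Calls in 1 fraction were made for further genes. Rptor was higher in C1.1 cytoplasm, with 67.8, 72.3 and 73.3 CPM in C1.1 and 27.6, 46.6 and 51.1 CPM in C166 (0.77 ± 0.15, adjusted p = 0.000580), and the lowest C166 value is that of the library that stood apart. Without that library the Rptor difference was 0.54 (adjusted p = 0.000451). Mtor (0.50 ± 0.11) and Ddit4 (0.77 ± 0.19) were also higher in C1.1 cytoplasm. In the nucleus C1.1 had more Irs2 (0.51 ± 0.13), Pdpk1 (0.31 ± 0.10) and Prkaa2 (1.35 ± 0.54) and less Foxo3 (-0.51 ± 0.09), Akt1 (-0.49 ± 0.10) and Sgk1 (-0.28 ± 0.08). Of these, Pdpk1 was lost without C166 normoxia replicate 3 (adjusted p = 0.0597), Prkaa2 without C1.1 normoxia replicate 1, 2 or 3 or C166 normoxia replicate 2 or 3 (adjusted p 0.0691 to 0.212), and the nuclear call of Foxo4 without C1.1 normoxia replicate 1 or 2 or C166 normoxia replicate 3 (adjusted p 0.0537 to 0.0655). Lost in 1 of the 12 settings tried were the nuclear calls of Sgk1 (adjusted p = 0.0853) and Pik3ca (0.0729) and the cytoplasmic call of Ddit4 (0.0592). The Prkaa2 call was lost in 6 of them. Neither fraction gave a call for Insr, Igf1r, Pik3r2, Akt2, Tsc1, Tsc2, Rictor, Mlst8, Akt1s1, Rps6kb1, Rps6kb2, Eif4ebp1, Eif4ebp2, Foxo1, Gsk3a or Gsk3b. Grb10, an imprinted adaptor that restrains the insulin receptor and is itself a substrate of mTORC1, was almost without reads in C1.1. It had 0, 1 and 0 counts in C1.1 nucleus and 4407, 4722 and 4661 counts in C166 nucleus, and 0, 0 and 3 counts in C1.1 and 6375, 7201 and 6493 counts in C166 cytoplasm. No C1.1 library of any condition had more than 13 Grb10 counts.

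**Figure D3:**
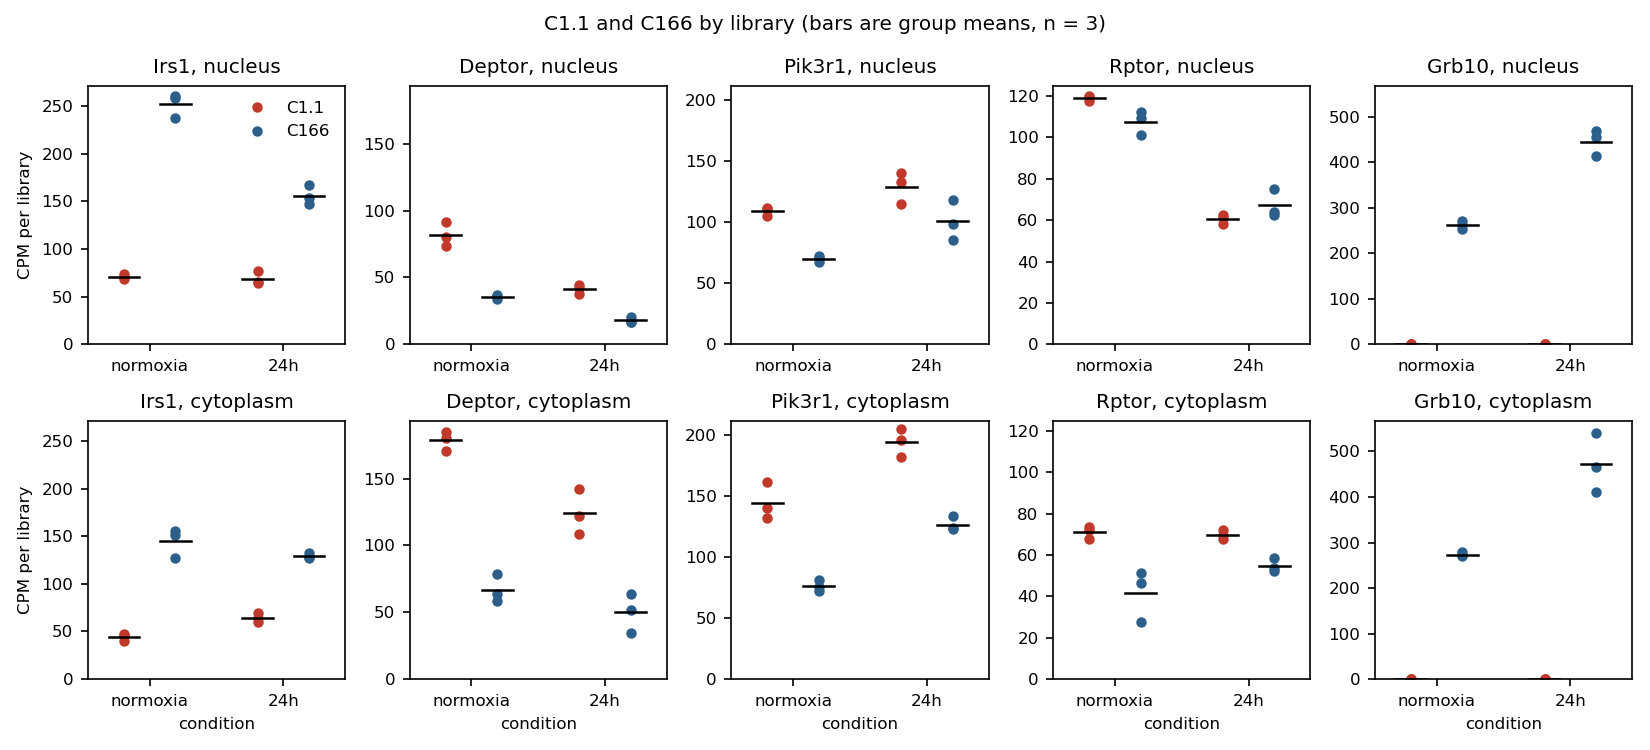
CPM of Irs1, Deptor, Pik3r1, Rptor and Grb10 in each library (points; bars are means of 3) of C1.1 and C166 in normoxia and after 24h of hypoxia; nucleus in the upper row, cytoplasm in the lower row. In normoxia Irs1 lies between 68.4 and 73.6 CPM in C1.1 nucleus, far below C166 nucleus, while Deptor and Pik3r1 are higher in C1.1 and Grb10 is near 0 there.

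The 24h responses of the lines differed for few of the genes. The C1.1 change minus the C166 change was called higher for 1 gene and lower for 0 in the nucleus, where 2.89% and 1.87% of all genes were called, and for 1 and 1 in the cytoplasm, where 1.39% and 0.94% were. Irs1 was the gene called in both, with a difference of 0.65 ± 0.14 in the nucleus (adjusted p = 0.00450) and 0.70 ± 0.16 in the cytoplasm (adjusted p = 0.0235). The cytoplasmic call of Irs1 was lost without C1.1 24h replicate 1 or C1.1 normoxia replicate 2 or C166 24h replicate 2 (adjusted p 0.0594 to 0.0763). The Ddit4 rise was smaller in C1.1 cytoplasm, with a difference of -1.10 ± 0.26 (adjusted p = 0.0267), and in the nucleus its difference of -0.75 ± 0.35 was not called (adjusted p = 0.245). The cytoplasmic call of Ddit4 was lost without C1.1 24h replicate 2 or 3 or C1.1 normoxia replicate 1, 2 or 3 or C166 24h replicate 2 or 3 (adjusted p 0.0552 to 0.0850). Other scalings and fits included, it was lost in 8 of the 18 settings tried (adjusted p up to 0.088). Normoxic Ddit4 was higher in C1.1 than in C166 cytoplasm (0.77 ± 0.19), and at 24h the lines overlapped, with 75.8 CPM in the highest C1.1 library and 66.1 CPM in the lowest C166 library.

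Nuclear and cytoplasmic RNA were compared in normoxia on a common scale of all 36 libraries. Levels are relative to the RNA sequenced from each fraction, so they do not say where most of a gene's RNA lies in the cell. In C1.1 9 of 33 genes were higher and 18 lower in the nucleus than in the cytoplasm, where 28.6% of all genes were called higher and 29% lower, and in C166 9 were higher and 15 lower, against 31.8% and 26.2%. The median log2 difference of the 33 was -0.40 in C1.1 and -0.22 in C166, and that of all genes 0.03 and 0.17. On the nuclear side in both lines were the receptors and adaptors (Insr, Igf1r, Irs1 and Irs2) and the complex subunits Tsc1, Mtor, Rptor and Rictor. Igf1r had 160.0, 163 and 161 CPM in the nucleus and 54.4, 49.5 and 51.5 CPM in the cytoplasm of C1.1 (1.64 ± 0.14), and 163, 181 and 185 CPM in the nucleus and 52.6, 53.3 and 45.5 CPM in the cytoplasm of C166 (1.81 ± 0.14). Insr stood at 1.22 ± 0.11 in C1.1 and 1.21 ± 0.11 in C166, and Irs2 at 1.14 ± 0.15 and 1.12 ± 0.15. Tsc2 was called higher in C166 nucleus, a call lost without nucleus normoxia replicate 1, 2 or 3 or cytoplasm normoxia replicate 1, 2 or 3 (adjusted p 0.0668 to 0.252), and the C166 call of Tsc1 was lost without nucleus normoxia replicate 1, 2 or 3 or cytoplasm normoxia replicate 1, 2 or 3 (adjusted p 0.0597 to 0.158). In C1.1 the call of Tsc1 was lost without nucleus normoxia replicate 1, 2 or 3 or cytoplasm normoxia replicate 1 (adjusted p 0.137 to 0.353), that of Mtor without nucleus normoxia replicate 1, 2 or 3 (adjusted p 0.0714 to 0.143), and that of Rictor without nucleus normoxia replicate 1, 2 or 3 or cytoplasm normoxia replicate 1 or 2 (adjusted p 0.0504 to 0.280).

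On the cytoplasmic side in both lines were 15 genes: Pik3ca, Pik3r1, Pik3r2, Pdpk1, Akt1, Akt2, Rheb, Akt1s1, Deptor, Eif4ebp1, Eif4ebp2, Foxo4, Gsk3a, Gsk3b and Prkaa1. The share of all genes called on the same side in both lines was not computed, for this side or the nuclear one. Eif4ebp2 had 10.4, 13.99 and 12.5 CPM in the nucleus and 39.7, 38.9 and 45.5 CPM in the cytoplasm of C1.1, and 15.8, 10.6 and 11.1 CPM in the nucleus and 63.6, 38.4 and 43.5 CPM in the cytoplasm of C166. Akt1 had 148, 178 and 167 CPM in the nucleus and 385, 475 and 479 CPM in the cytoplasm of C1.1, and 242, 253 and 202 against 466.3, 528 and 590.3 CPM in C166. For both genes every cytoplasmic library was above every nuclear one. The log2 differences were -1.75 ± 0.22 and -1.96 ± 0.22 for Eif4ebp2 and -1.44 ± 0.11 and -1.18 ± 0.10 for Akt1 in C1.1 and C166. Within pairs of relatives, Gsk3a stood at -1.39 and Gsk3b at -0.92 in C1.1, and Foxo4 at -0.86 and Foxo1 at -0.40, the last of which was not called. In C1.1 Rps6kb2 was also higher in the nucleus (0.53 ± 0.20) and Sgk1 (-0.23 ± 0.09), Ddit4 (-0.69 ± 0.25) and Foxo3 (-0.31 ± 0.10) lower, and each of these calls was lost without at least 1 library. They were lost without nucleus normoxia replicate 1 or 3 or cytoplasm normoxia replicate 1 (adjusted p 0.0505 to 0.535) for Rps6kb2, cytoplasm normoxia replicate 1 or 2 (adjusted p 0.0782 to 0.132) for Sgk1, cytoplasm normoxia replicate 1 (adjusted p = 0.0550) for Ddit4 and cytoplasm normoxia replicate 3 (adjusted p = 0.122) for Foxo3. The C166 call of Pik3r1 was lost without nucleus normoxia replicate 1, 2 or 3 or cytoplasm normoxia replicate 3 (adjusted p 0.0532 to 0.180). Over all 12 settings tried, other scalings and fits included, more calls were lost. In C1.1 Sgk1 was lost in 6 (adjusted p up to 0.855), Foxo3 in 5 (up to 0.333), Ddit4 in 4 (up to 0.0881) and Pdpk1 in 1 (0.0536). In C166 Pik3r1 was lost in 9 (up to 0.343), Tsc1 in 7 (up to 0.158) and Foxo4 in 1 (0.0668). The C1.1 difference of Sgk1 came as near to 0 as -0.02. Pik3cb, Mlst8, Rps6kb1 and Prkaa2 were not called in either line.

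**Figure D4:**
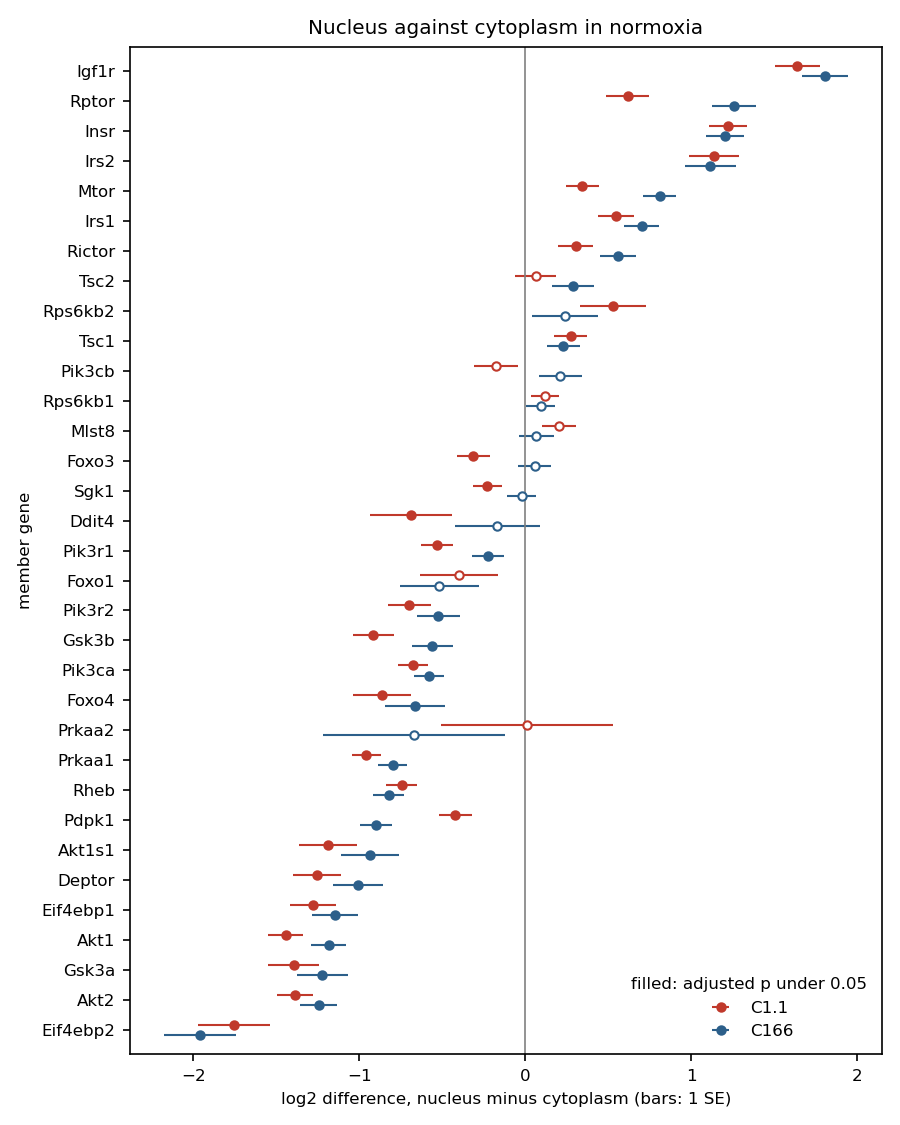
Log2 difference of nucleus minus cytoplasm in normoxia (points, with bars of 1 SE) for the 33 genes, ordered by the C166 value, with C1.1 above C166 at each gene; filled points have an adjusted p under 0.05. In both lines Igf1r is on the nuclear side and Eif4ebp2 and Akt1 are far on the cytoplasmic side.

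The last comparison asked whether the 24h change differed between nucleus and cytoplasm. It was added after values had been seen, and takes the nuclear change minus the cytoplasmic change. In C1.1 0 of 33 genes were called higher and 8 lower, where 6.76% and 4.29% of all genes were, and in C166 0 were higher and 6 lower, against 3.25% and 5.17%. Called lower in both lines were Irs1, Tsc2, Mtor, Rptor and Gsk3b. Rptor gave -0.94 ± 0.18 in C1.1 and -1.09 ± 0.18 in C166 (adjusted p = 0.000595 and 0.000250). Mtor gave -0.72 ± 0.14 and -0.73 ± 0.14 (adjusted p = 0.000595 and 0.000766). The differences of Irs1 were -0.57 ± 0.15 and -0.56 ± 0.15, those of Tsc2 -0.70 ± 0.18 and -0.55 ± 0.18, and those of Gsk3b -0.54 ± 0.17 and -0.56 ± 0.17. Eif4ebp2 (-1.24 ± 0.31), Tsc1 (-0.54 ± 0.14) and Pdpk1 (-0.41 ± 0.14) were called in C1.1, and Foxo3 (-0.45 ± 0.14) in C166. No call of Rptor, Mtor or Eif4ebp2 was lost when 1 library was left out. Over all 18 settings tried, the C166 call of Mtor was lost in 1 (adjusted p = 0.0513). The C166 calls of Tsc2, Foxo3, Gsk3b and Irs1 were lost in 16, 10, 8 and 3 of the 18, and the C1.1 call of Pdpk1 in 14. Without the library that stood apart the C166 calls of Tsc2, Foxo3 and Gsk3b were lost (-0.55, -0.33 and -0.49, adjusted p = 0.0670, 0.138 and 0.0955). In C1.1 the call of Tsc2 was lost without nucleus normoxia replicate 2 or 3 or cytoplasm 24h replicate 3 or cytoplasm normoxia replicate 1 or 2 (adjusted p 0.0509 to 0.134), that of Irs1 without nucleus normoxia replicate 1, 2 or 3 or cytoplasm 24h replicate 3 or cytoplasm normoxia replicate 2 (adjusted p 0.0599 to 0.114), and that of Tsc1 without nucleus 24h replicate 1 or nucleus normoxia replicate 1, 2 or 3 or cytoplasm 24h replicate 3 or cytoplasm normoxia replicate 1 or 2 (adjusted p 0.0540 to 0.170). That of Gsk3b was lost without nucleus 24h replicate 1 or 2 or nucleus normoxia replicate 1, 2 or 3 or cytoplasm 24h replicate 1 or 3 or cytoplasm normoxia replicate 1 or 2 (adjusted p 0.0529 to 0.377), and that of Pdpk1 without any 1 of the 12 libraries of these groups (adjusted p 0.0516 to 0.454). The C166 call of Irs1 was lost without nucleus 24h replicate 2 or nucleus normoxia replicate 2 (adjusted p 0.0583 to 0.0614), that of Tsc2 without nucleus 24h replicate 1, 2 or 3 or nucleus normoxia replicate 1, 2 or 3 or cytoplasm 24h replicate 1 or 3 or cytoplasm normoxia replicate 1, 2 or 3 (adjusted p 0.0532 to 0.169), that of Foxo3 without nucleus 24h replicate 1, 2 or 3 or nucleus normoxia replicate 1 or 2 or cytoplasm 24h replicate 1, 2 or 3 or cytoplasm normoxia replicate 1 (adjusted p 0.0528 to 0.241) and that of Gsk3b without nucleus 24h replicate 2 or 3 or nucleus normoxia replicate 1 or 2 or cytoplasm 24h replicate 1 or 3 or cytoplasm normoxia replicate 1 (adjusted p 0.0893 to 0.179). The cytoplasmic sum of 5 nuclear-retained RNAs moved as well, to 4295 to 7131 CPM at 24h, against 3074 to 3169.7 CPM in normoxia, in C1.1, and to 8977 to 9574 against 4070.3 to 5208 CPM in C166. Its part in these differences was not tested.

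**Figure D5:**
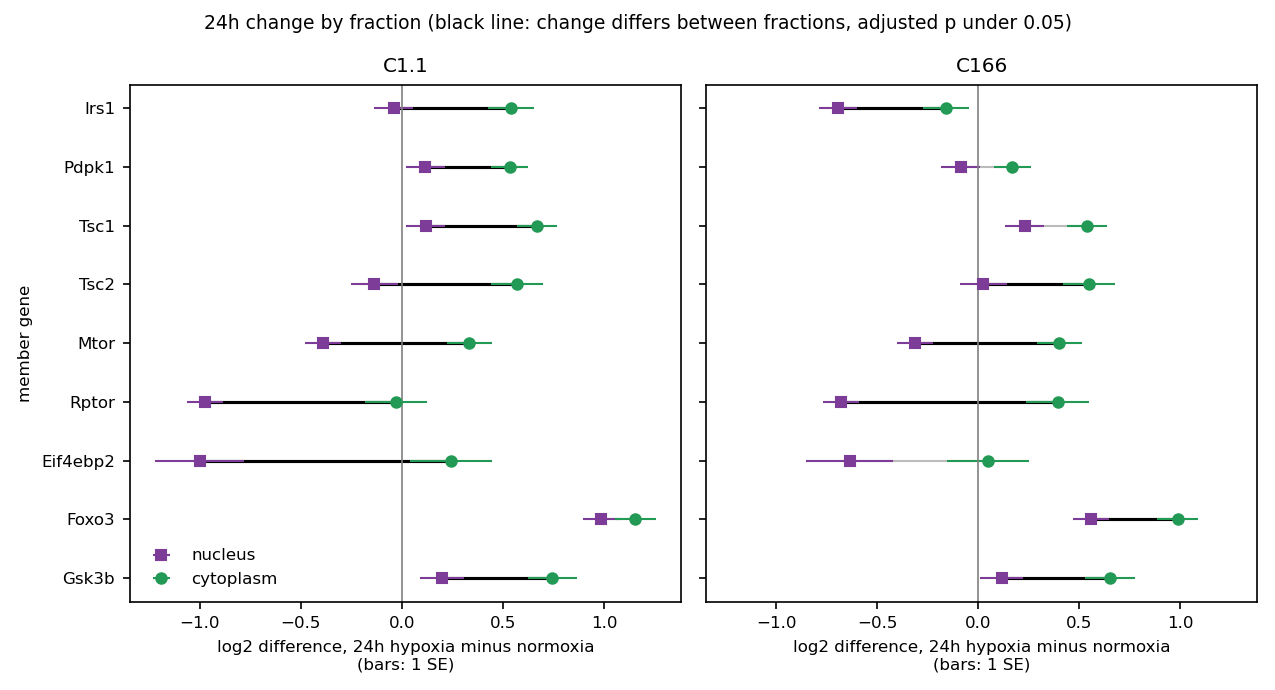
Log2 change at 24h against normoxia (with bars of 1 SE) in nucleus (squares) and cytoplasm (circles) for 9 genes in C1.1 and C166 (panels), from the fit of each fraction; a black line joins the fractions of genes whose change was called different between them. Mtor and Rptor lie lower in the nucleus than in the cytoplasm in both lines.

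Other genes of the pathway were counted in lists, to be read against the share of all genes called at 24h. That share was 22.3% higher and 20.5% lower in C1.1 nucleus, 19.2% and 18.4% in C166 nucleus, 18% and 18.1% in C1.1 cytoplasm, and 18.2% and 17.5% in C166 cytoplasm. Of 16 FOXO target genes tested, 11 were higher and 3 lower at 24h in C1.1 nucleus, 13 and 1 in C166 nucleus, 12 and 1 in C1.1 cytoplasm, and 13 and 1 in C166 cytoplasm. Ccng2, a cyclin of cell cycle arrest, rose by 3.27 ± 0.21 in C1.1 and 3.97 ± 0.23 in C166 cytoplasm, and Cdkn1b, the p27 inhibitor, by 1.15 ± 0.08 and 1.16 ± 0.08. The median of the list was 0.90 and 0.85 in the cytoplasm of C1.1 and C166, beside 0.03 and 0.08 over all genes, and 0.91 and 0.81 in their nuclei, beside 0.00 and 0.00. These are RNA levels and not a measure of FOXO activity. Of 23 genes of amino acid sensing to mTORC1, 14 were higher and 0 lower in C1.1 nucleus and 12 and 1 in C166 nucleus. In cytoplasm 11 were higher and 1 lower in C1.1, and 12 and 1 in C166. Sesn3, a sestrin that holds back mTORC1, rose by 1.26 ± 0.13 in C1.1 and 0.82 ± 0.13 in C166 cytoplasm.

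Of 22 adaptors and brakes of PI3K signalling, 11 were higher and 0 lower at 24h in C1.1 cytoplasm, and 9 and 3 in C166 cytoplasm. Gab2, an adaptor of PI3K, rose by 1.97 ± 0.23 in C1.1 cytoplasm. In the nucleus 7 were higher and 5 lower in C1.1, and 5 and 6 in C166. Trib3, a pseudokinase that binds AKT, rose by 3.01 ± 0.21 in C1.1 nucleus and 3.82 ± 0.21 in C166 nucleus. Of 10 mTOR outputs 5 were higher and 3 lower in C1.1 cytoplasm and 5 and 3 in C166 cytoplasm. Among them Eif4e, the cap-binding factor that Eif4ebp1 holds, was lower, with log2 differences of -0.84 ± 0.08 in C1.1 and -0.85 ± 0.08 in C166 cytoplasm. For the next 3 lists the share of all genes in cytoplasm was 18% higher and 18.1% lower in C1.1 and 18.2% and 17.5% in C166. Of 15 partners of mTOR and AMPK, 3 were higher and 2 lower in C1.1 cytoplasm and 0 and 2 in C166 cytoplasm. Of 12 further kinase and phosphatase subunits, 2 and 2 were higher and 1 and 3 lower in the cytoplasm of C1.1 and C166. Of 10 IGF ligands and binding proteins, 1 and 1 were higher and 2 and 4 lower there. Igfbp4, a carrier that keeps IGF from its receptor, was lower, with log2 differences of -1.23 ± 0.10 in C1.1 and -1.12 ± 0.10 in C166 cytoplasm.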

How the data were processed

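Total RNA of the nuclear and cytoplasmic fractions was depleted of ribosomal RNA and sequenced as stranded 50 bp read pairs. The authors mapped the reads to GRCm38 (Ensembl 81 annotation) using TopHat 2.0.11 over Bowtie2 2.2.2. Cufflinks 2.2.1, Cuffdiff, edgeR and featureCounts are further tools in the submitters' processing notes. Which tool made the counts and how it used strand are not given in the sources used here. The deposited raw counts are whole numbers per gene symbol, not normalized, with a column for each library. The same table holds size-factor normalized values and columns of fold changes and p-values of the authors' own comparisons, which were not used here.

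Groups were taken from the labels. Counts were analysed in R 4.3.3 with edgeR 4.0.16 and limma 3.58.1: low genes were removed by filterByExpr, libraries scaled by TMM, and genes tested by quasi-likelihood F, with Benjamini-Hochberg adjustment over all genes tested and a threshold of 0.05. One model was made per fraction (18 libraries, 14998 cytoplasmic and 15735 nuclear genes) and one for both (36 libraries, 16682 genes), the last for comparisons between fractions. Within a line and fraction, 2h and 24h were set against normoxia. Between lines, normoxic C1.1 was set against normoxic C166, and the 24h change of C1.1 against that of C166. Between fractions, normoxic nucleus was set against normoxic cytoplasm. The comparison of the 24h change between fractions was added after values were seen. Standard errors were taken from F and the log2 difference. CPM per kb uses exon lengths of GENCODE M21 on GRCm38, which also gave coordinates, and promoter windows are from RefSeq (GRCm38.p6). Depth gave total counts of 15314724 to 28667821 per library. Alternatives were leaving out each library, a replicate block, DESeq2 1.42.0, RLE or upper-quartile scaling, keeping low genes, and a fit of the libraries compared alone. The cytoplasmic edgeR fit was tested on simulated counts, for the 24h change of C166 and the difference of the 24h responses. The nuclear fit, the fit of both fractions and DESeq2 were not tested in this way.

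The members and the gene lists were chosen with earlier results of these data known. All 33 members are named. Of each other pathway list, counts are given in each direction, and up to 3 genes with the smallest p in a comparison could be named, others only where a result turns on them. Listed symbols with no row were not analysed here. Of the members, 12 share exon sequence with a gene on the opposite strand (Irs1, Irs2, Pik3r2, Tsc2, Rptor, Mlst8, Akt1s1, Deptor, Rps6kb1, Rps6kb2, Foxo1 and Gsk3a) and 1 (Akt1s1) on the same strand, and their counts are uncertain to that extent.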

Additional observations from a re-analysis of the deposited data

Results flagged for a closer look

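Differences between the lines' 24h responses, tested as C1.1 minus C166, were called for Irs1 in the nucleus (0.65) and the cytoplasm (0.70) and for Ddit4 in the cytoplasm (-1.10), all on the log2 scale. Irs1 had 77.2, 64.9 and 64.8 CPM at 24h in C1.1 nucleus and 147, 153 and 168 CPM in C166 nucleus, so the gap between the lines was smaller at 24h than in normoxia.

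The 24h change differed between the fractions, tested as nucleus minus cytoplasm, for 8 genes in C1.1. These were Irs1 (-0.57), Pdpk1 (-0.41), Tsc1 (-0.54), Tsc2 (-0.70), Mtor (-0.72), Rptor (-0.94), Eif4ebp2 (-1.24) and Gsk3b (-0.54). In C166 it differed for 6 genes, which were Irs1 (-0.56), Tsc2 (-0.55), Mtor (-0.73), Rptor (-1.09), Foxo3 (-0.45) and Gsk3b (-0.56). Of all genes 6.76% were called higher and 4.29% lower in C1.1, and 3.25% and 5.17% in C166. All of the differences named here had the same sign, and 28 of the 33 genes in C1.1 and 29 in C166 had a negative difference, called or not. The share of all genes with a negative difference was not computed. The median of the 33 was -0.19 in C1.1 and -0.22 in C166, beside 0.007 and -0.095 over all genes.

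Among the other listed genes of the pathway, only up to 3 with the smallest p per list and fraction were looked at. Of those, 6 had 24h responses called different between the lines in both fractions, which is not a count over all listed genes. Of all genes 2.89% were called higher and 1.87% lower in the nucleus, and 1.39% and 0.94% in the cytoplasm. The share of all genes called in both was not computed. Grb14, an adaptor that inhibits the insulin receptor, gave 1.68 in the nucleus and 1.96 in the cytoplasm. Igfbp6, a carrier of IGF2, gave 1.77 and 1.59, and Igfbp3, the main carrier of IGF in blood, gave -1.204 and -1.57. Txnip, a regulator of glucose uptake, gave 0.83 and 1.18. Trib2, a pseudokinase that binds AKT, gave -1.196 and -1.24, and Bcl6, a transcriptional repressor, gave -1.26 and -1.76.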

How the results depend on the processing

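No call reversed its direction. The alternatives were run for 176 differences: the 175 calls of the 33 genes, and Ddit4 in the nuclear difference of the responses, which was not called. Of 2220 values 1972 stayed on the same side of the threshold, 246 lost a call and 2 gained one, and 53 of the 176 differences changed side under at least 1 alternative. Leaving out 1 library changed 46 of them, fitting only the libraries compared 18, upper-quartile factors 10, RLE factors 7, keeping low genes 7, the replicate block 6 and DESeq2 5.

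In proportion, numbers of the 33 genes called moved most with the processing where few were called. With DESeq2 they were 4 at 2h in C166 cytoplasm (2 with edgeR), 4 at 2h in C1.1 nucleus (2) and 2 for the difference of the 24h responses in the nucleus (1). With only the libraries compared they were 11 at 2h in C1.1 cytoplasm (5 with all), 1 at 2h in C166 cytoplasm, 1 and 2 for the difference of the responses in cytoplasm and nucleus, and 1 for the fraction comparison in C166 (6). For the difference of the responses in the nucleus, RLE factors and the replicate block gave 2 and keeping low genes gave 3. Larger numbers moved too. With only the libraries compared, 21 genes were called between the lines in normoxic nucleus (14 with all) and 8 in normoxic cytoplasm (11). At 24h in C166 cytoplasm that fit called 13 (17 with all). For none of these alternative fits was the share of all genes called computed. Whether these numbers moved more than that share was therefore not tested.

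Without 1 library the numbers called ran, at 2h, from 2 to 4 in C1.1 cytoplasm, from 1 to 3 in C166 cytoplasm, from 1 to 3 in C1.1 nucleus and from 1 to 2 in C166 nucleus. For the difference of the 24h responses they ran from 0 to 2 in cytoplasm and from 1 to 3 in nucleus, where leaving out C166 nucleus 24h replicate 1 brought a call of Ddit4 (-1.07, adjusted p = 0.0129). For the fraction comparison they ran from 3 to 8 in C1.1 and from 2 to 6 in C166. Without C166 cytoplasm normoxia replicate 1, C166 cytoplasm had 1 call at 2h and 16 at 24h. For the fits that leave out a library, too, the share of all genes called was not computed.

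Same-numbered libraries did not deviate together (correlations of -0.05 to 0.09), and the main fits used no replicate block. Correlations within groups of 3 cannot decide whether same-numbered libraries came from the same culture, which the labels do not say. The cause of the changes was not tested. Other scalings moved the median of all genes by -0.07 to 0.10 on the log2 scale in the hypoxia and line comparisons and by 0.08 to 0.21 between nucleus and cytoplasm. Replicate pairs differed by more than counting error (chi-square per degree of freedom of 3.24 to 55.0).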
